A study of Mus musculus with 4 samples.

Results

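The m6A peaks described here lay around the start codons of mouse brain mRNAs, past the first 200 nt of the transcript. Peaks of both replicates that overlapped by at least 1 bp were reduced to their common bases, and the midpoint of each common interval was placed on the spliced mRNA with the longest coding sequence of its gene. An interval was kept when its midpoint lay more than 200 nt from the mRNA start, in the 5′ UTR or up to 200 nt after the start codon, and more than 200 nt from the stop codon. Of 23901 shared intervals, 19717 were placed on 1 mRNA each, in 9124 genes, and 1612 of these met the rule. They lay in 1432 genes, 15.7% of the genes with a placed interval. These 1612 intervals made up 8.18% of the placed intervals (95% Wilson interval 7.80 to 8.57) and 6.74% of all shared intervals. The other placed intervals fell in the first 200 nt of the mRNA (1756), near stop codons (4515), elsewhere in coding sequence (8504) or elsewhere in the 3′ UTR (3330).

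The samples were whole brain of C57BL/6J mice at 4 weeks of age, which the design text gives as Prrc2a flox/flox, that is, with the Prrc2a gene flanked by recombination sites. The labels name no Cre driver, no second genotype and no number of animals per sample. There were 2 m6A immunoprecipitation (IP) samples and 2 input samples, so the data hold 1 condition, and all differences below are between positions and genes, described in both replicates without a test. The value of a peak was its fold enrichment, which is the IP signal divided by the input of the same replicate, on a linear scale. A shared interval took the value listed for each replicate's own peak, which can reach past the common bases. The peak lists held 38533 peaks in replicate 1 and 30134 in replicate 2. No counts of reads were in the lists, so the depth behind each value was unknown. Brain is a mixture of neurons and glia, and a ratio of IP to input carries no cell type.

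N6-methyladenosine (m6A) is laid down on nascent mRNA by the Mettl3-Mettl14 complex, mostly at adenosines in a short motif whose core is often GGAC, and it is read by proteins such as the YTH family. Across mammalian mRNAs it is best known around stop codons and in long internal exons. In the 5′ UTR, m6A has been linked to translation initiation, and peaks in the first bases of a transcript can also come from the related cap-adjacent modification m6Am, which the antibody binds as well.

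The strongest start codon intervals were ranked by the lower of their fold enrichments, and the GGAC nearest the midpoint is shown for 7 of the first 12, because this motif is the one the comparison of windows below turns on. Each line holds 30 bases of the mRNA strand from RefSeq mm10, 5′ to 3′, with GGAC in capitals, and each GGAC adenosine lay inside the interval shared by both replicates.
Gpr21, chr2:37517200-37517229, plus strand: atggctgcgtctgGGACtggccagacaact
Gpr61, chr3:108151760-108151789, minus strand: ctagagcaaagcaGGACcctggagagggga
Rara, chr11:98950535-98950564, plus strand: ccccgaggaagagGGACtgcgtgaaggcca
Pcdh17, chr14:84443866-84443895, plus strand: gcacaccgatgctGGACtttgtgaacagag
Stk11, chr10:80116453-80116482, plus strand: gacccggttgtggGGACcgggagagttgtg
Fosb, chr7:19309643-19309672, minus strand: accgacagagcctGGACtttcaggaggtac
Sesn1, chr10:41811042-41811071, plus strand: agcgagatgggagGGACtgtgcagcagaga
These sites lay in the 5′ UTR of Gpr21, Gpr61, Rara, Pcdh17, Stk11 and Fosb and in the coding sequence of Sesn1. The capital adenosine lay 9 nt from the interval midpoint in Fosb, 40 nt in Sesn1, 50 nt in Pcdh17, 59 nt in Stk11, 78 nt in Rara, 89 nt in Gpr61 and 144 nt in Gpr21. A peak much wider than the motif does not tell which adenosine was methylated.

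In some genes the motif was part of the start codon itself, as ATGGAC, in which the adenosine is base 5 of the coding sequence. This was so for 28 of the 859 start codons that lay under an interval, and the 4 with the strongest intervals are shown with ATGGAC in capitals, on RefSeq mm10.
Stk11, chr10:80116605-80116634, plus strand: agagtgggccaggATGGACgtggcggaccc
Perm1, chr4:156216988-156217017, plus strand: ttgctgatgtgcaATGGACaacttccagta
Fli1, chr9:32541192-32541221, minus strand: cagacttggccaaATGGACgggactattaa
Gpr4, chr7:19222142-19222171, plus strand: cccatcgcccaggATGGACaacagcacggg
Perm1, a regulator of muscle metabolism genes, was enriched 4.27-fold in replicate 1 and 3.90-fold in replicate 2. Fli1, an ETS transcription factor, had 5.19 and 3.60, and Gpr4, a proton-sensing receptor, had 4.74 and 3.29. ATGGAC opened 2.73% of the coding sequences of genes with a start codon interval (39 of 1427 with an ATG, Wilson interval 2.01 to 3.71) and 3.10% of those of the other genes with a placed interval (230 of 7421), and the Wilson interval of the first share holds the second.

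The 20 strongest start codon intervals, 1 per gene, are given by the role of the gene, receptors first. Gpr21, an orphan G protein-coupled receptor, led the ranking with a fold enrichment of 8.58 in replicate 1 and 5.91 in replicate 2 (chr2:37517186-37517532, exon 2 of 2, midpoint in the 5′ UTR 85 nt before the start codon). Gpr61, another orphan receptor, had 5.30 and 6.03 (chr3:108151427-108151943, 342 nt before the start codon), and Mc4r, the melanocortin receptor that controls feeding, had 4.63 and 4.81. Rara, the nuclear receptor for retinoic acid, had 7.85 and 5.25 at the start codon itself (chr11:98950376-98950880, exon 3 of 10). In all 4 receptor mRNAs both replicates were above 4.

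Among the adhesion molecules, the clustered protocadherins Pcdhb11, Pcdhb13 and Pcdhb15, single-exon genes with closely related sequences, for which the authors' filter kept uniquely mapped reads, had 5.71 and 6.21, 6.00 and 4.56, and 4.43 and 6.30. Pcdh17, a protocadherin outside these clusters, had 5.84 and 5.07, far from its start codon at 2164 nt before it in a first exon of 5091 nt (chr14:84443743-84444120). Among the regulators, Stk11, the kinase also called Lkb1 that activates AMPK, had 6.61 and 4.62 over its start codon (chr10:80116147-80116907). The interval of Stk11 was also the only one of the first 20 within 200 nt after another annotated transcript start of its gene. Sesn1, a stress-induced regulator of mTORC1, had 4.26 and 5.13 (chr10:41810914-41811280), and Fosb, an AP-1 subunit induced by neuronal activity, had 4.32 and 6.04 in its 5′ UTR (chr7:19309486-19309846). Cmya5, which encodes a large muscle-associated protein, had 4.97 and 4.60 at 36 nt after the first base of its start codon.

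The other named intervals were on Gm14597 (4.19 and 6.53), the galactosyltransferase B3galt2 (4.33 and 4.16), the DNA ligase Lig1 (4.48 and 4.15), the sphingomyelin synthase Sgms1 (5.65 and 4.06), the clavesin Clvs2 (6.26 and 4.02), the zinc finger gene Zfp420 (4.13 and 3.96), Tmem74 (3.96 and 4.00) and Ccdc8 (4.18 and 3.95). Of the 20 intervals, 12 covered the start codon, 11 had their midpoint in coding sequence and 9 in the 5′ UTR, and 11 lay in exons longer than 1200 nt. Gm14597 and Lig1 were different: only 46.4% and 25.2% of their interval bases were in exons, and their exons were 185 and 90 nt long. Replicate 2 was the higher of the replicates in 8 of the 20.

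**Figure D1:**
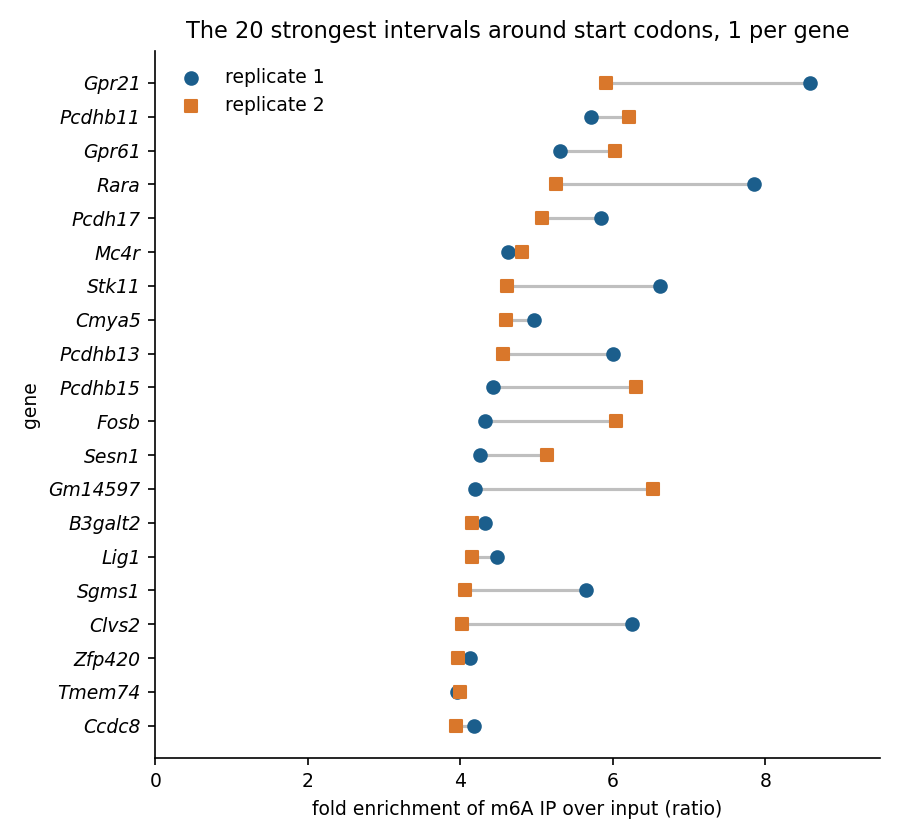
Fold enrichment (IP over input, linear) of the 20 strongest start codon intervals, 1 point per replicate, ordered by the lower value. Gpr21 heads the list at 8.58 and 5.91, and Ccdc8 closes it at 4.18 and 3.95.

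Midpoints lay on both sides of the start codon, with positions shaped by the rule, which leaves out midpoints in the first 200 nt of the mRNA. The median midpoint lay 26 nt after the first base of the start codon, the first quartile 109 nt before it and the third quartile 120 nt after it, and the farthest was 2176 nt upstream. Midpoints were in the 5′ UTR for 710 intervals (44.0%) and in coding sequence for 902 (56.0%). The interval itself covered the start codon in 859 cases (53.3%, Wilson interval 50.8 to 55.7). The median interval was 333 nt long (quartiles 257 and 397), against 338 nt over all placed intervals, so a midpoint 120 nt from the start codon still had the codon under the interval in many cases.

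**Figure D2:**
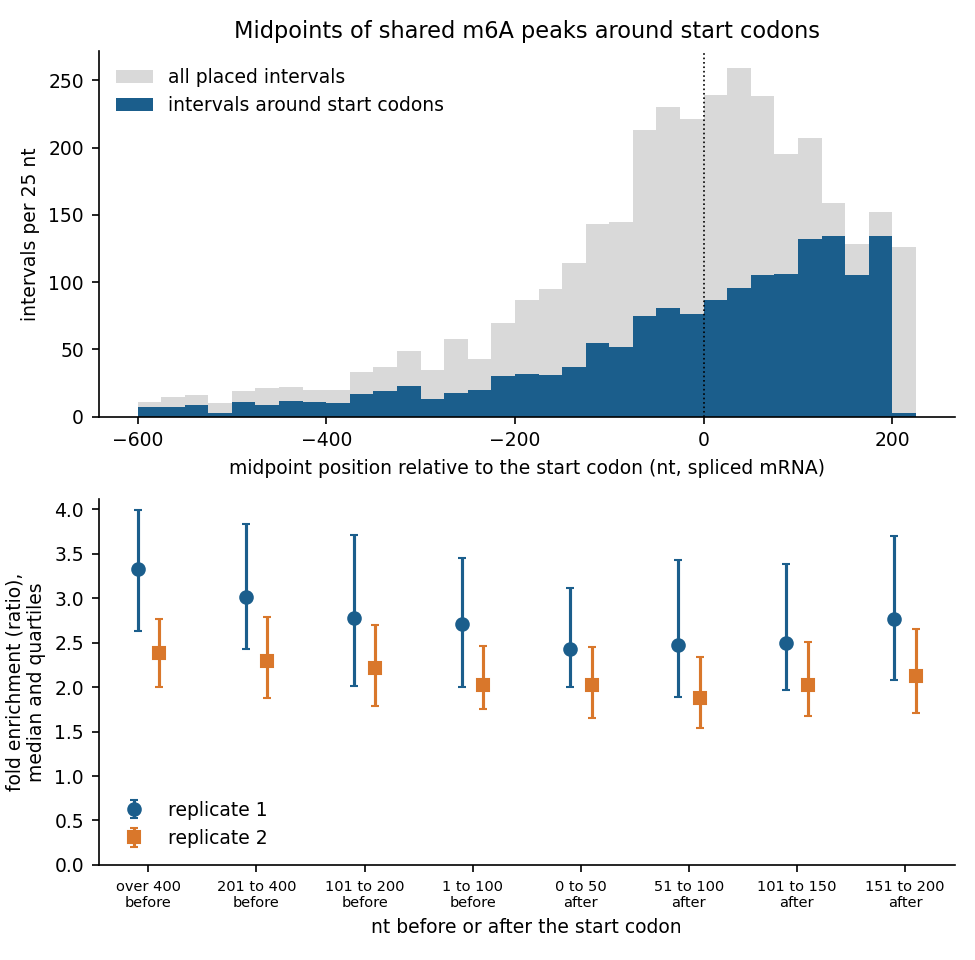
Number of start codon intervals by the position of their midpoint relative to the start codon, in nt on the spliced mRNA, drawn from 600 nt upstream and in front of all placed intervals in grey (top), and their median fold enrichment with quartiles by distance, 1 symbol per replicate (bottom). The median midpoint lies 26 nt after the first base of the codon, the rule sets the right edge at 200 nt, and the replicate 1 median goes from 3.34 far upstream to 2.44 in the first 50 nt after it.

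The first exon held 832 of the midpoints (51.6%), the second 537 (33.3%) and later exons 243 (15.1%), while 69 (4.28%) were on single-exon mRNAs. Most genes, 1275 of 1432, had 1 such interval. There were 135 genes with 2, 21 with 3 and 1 with 4. The zone allowed by the rule is as long as the 5′ UTR, so genes with long 5′ UTRs had more room for a member: the median 5′ UTR was 388.5 nt in genes with a start codon interval and 195 nt in genes with any placed interval. That length is a product of the rule and not a finding.

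Start codon intervals were weaker than most other m6A intervals on mRNA. Their median fold enrichment was 2.69 in replicate 1 (quartiles 2.03 and 3.53, range 1.05 to 10.0) and 2.09 in replicate 2 (quartiles 1.73 and 2.56, range 1.10 to 6.53). All other placed intervals had medians of 3.07 and 2.34, those near stop codons 3.30 and 2.51, and those in the first 200 nt of the mRNA 2.49 and 2.02. The order was the same in both replicates: stop codon above start codon above mRNA start. Enrichment was 2-fold or more in each replicate for 812 of the 1612 start codon intervals, or 50.4% (Wilson interval 47.9 to 52.8), below the 62.6% of all placed intervals, while the mRNA start had 43.6% and stop codons had 72.1%. Intervals of this size are not independent replicates of a condition, and the Wilson intervals cover counting error only.

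Within the start codon intervals, those with a midpoint in the 5′ UTR were somewhat stronger (2.89 and 2.19, with 56.1% at 2 or more in both replicates) than those in coding sequence (2.56 and 2.02, 45.9%). Intervals that covered the start codon had 2.80 and 2.16 (55.8%), and the 753 that did not had 2.57 and 2.01 (44.2%). The 69 on single-exon mRNAs, which include the Pcdhb genes above, had 3.34 and 2.49 (71.0%). The quartile ranges of all these groups overlapped widely in each replicate.

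The replicates differed in level over all mRNAs, and the start codon intervals followed the rest. The median log2 ratio of replicate 2 over replicate 1 was -0.36 for them and -0.38 for all placed intervals. Replicate 2 was the higher in 365 (22.6%), close to the 21.5% of all placed intervals. A few genes were far from this. Csrnp2, a nuclear protein with a cysteine-rich domain, had 9.95 in replicate 1 and 1.65 in replicate 2, Zic1, a neural zinc finger factor, had 7.83 and 1.74, Arhgap11a had 9.13 and 2.63, 0610037L13Rik had 5.85 and 1.28, and Pomgnt2, a glycosyltransferase of dystroglycan, had 6.66 and 1.66 over only 44 common bases. In the other direction, Socs2, an inhibitor of cytokine signalling, had 2.58 and 6.12, Pnmal2 had 1.41 and 3.13, Lyrm7 had 2.02 and 4.25, Rhbdd1 had 2.36 and 4.87, and Tanc1, a postsynaptic scaffold, had 1.65 and 3.29. In these 10 intervals the replicates differed by more than in any of the others in the same direction. The peaks compared were not always alike in extent. For Pnmal2 the replicate 2 peak was chr7:16944726-16948835 and the replicate 1 peak chr7:16944733-16945044.

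**Figure D3:**
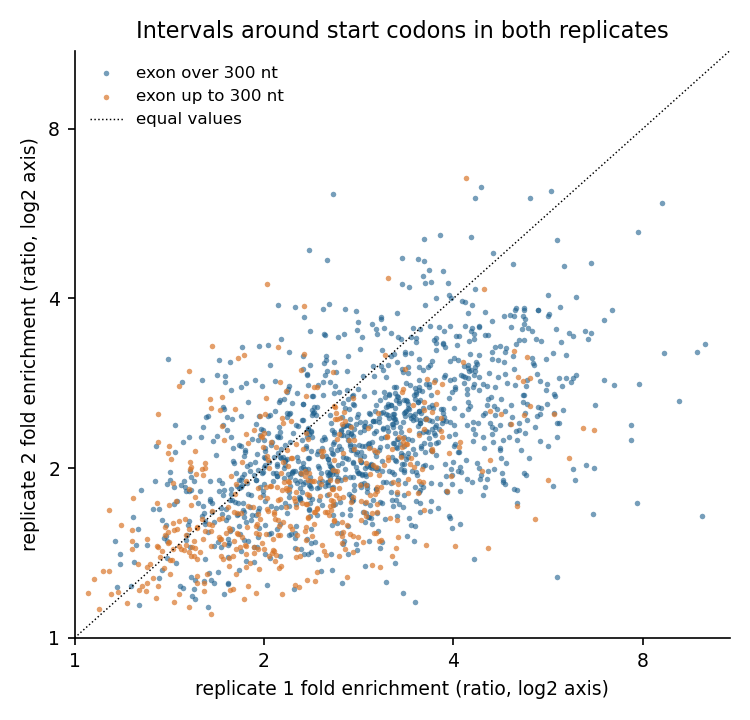
Fold enrichment of each start codon interval in replicate 1 (horizontal) and replicate 2 (vertical), both on log2 axes, coloured by whether the exon with the midpoint is longer than 300 nt. Most points lie below the diagonal, as replicate 2 was the higher in 22.6% of intervals.

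Enrichment was higher in longer exons. In exons of up to 150 nt (223 intervals) the medians were 2.10 and 1.69, in exons of 151 to 300 nt (238) 2.35 and 1.80, in exons of 301 to 600 nt (487) 2.60 and 2.03, in exons of 601 to 1200 nt (352) 2.998 and 2.24, and in exons over 1200 nt (312) 3.43 and 2.48. The share with at least 2 in both replicates went from 21.5% through 30.7%, 48.0% and 63.1% to 75.3%. The median was higher at every step in both replicates, with overlapping quartile ranges between neighbouring classes. All other placed intervals were in the same order. From the shortest to the longest class, their medians were 2.34 and 1.81, 2.37 and 1.90, 2.89 and 2.31, 3.34 and 2.47, and 3.57 and 2.64. Start codon intervals were below these in every class and both replicates. The median exon was 496.5 nt for start codon intervals and 1058 nt for all other placed intervals. The part of exon length in the difference between these sets was not tested.

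**Figure D4:**
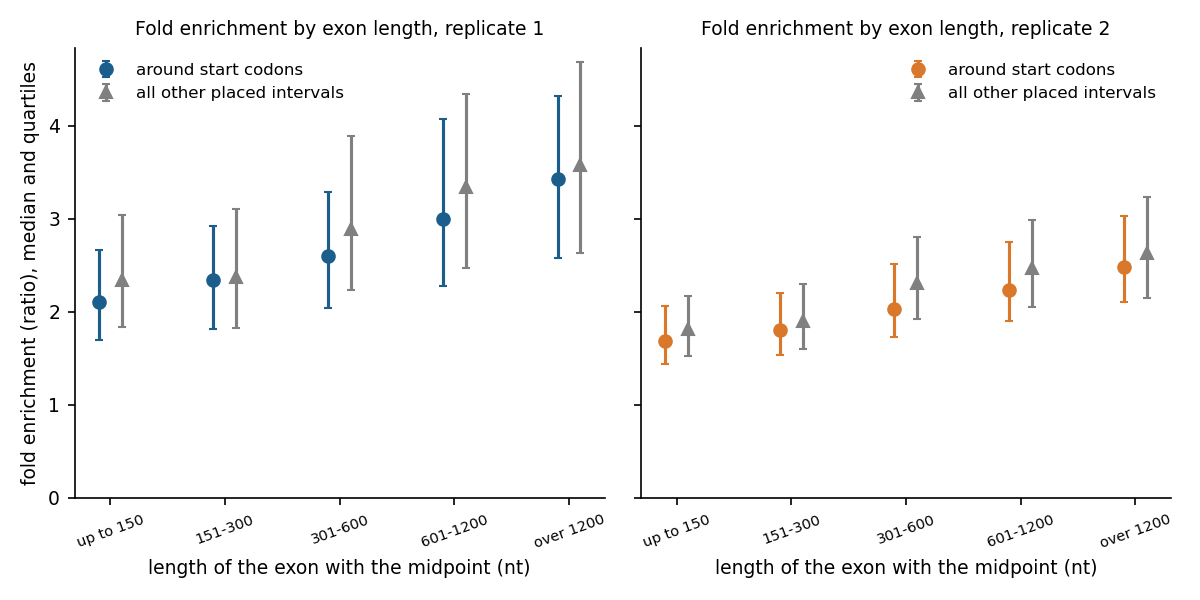
Median fold enrichment with quartiles against the length of the exon with the midpoint (5 length classes in nt), for start codon intervals and all other placed intervals, 1 panel per replicate. Start codon intervals go from 2.10 to 3.43 in replicate 1 and from 1.69 to 2.48 in replicate 2.

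Many intervals had bases outside the exons of the representative mRNA, and 831 (51.6%) had all their bases in those exons. Whether the bases outside lay in introns, beyond the ends of the mRNA or in exons of other transcripts was not determined. For these, the medians were 1.73 and 1.57 in exons of 151 to 300 nt (27 intervals), 2.55 and 2.02 in those of 301 to 600 nt, 2.89 and 2.20 in those of 601 to 1200 nt, and 3.35 and 2.47 above that. In 227 intervals (14.1%) under 50% of the bases were exonic, and all but 26 of these were in exons of up to 150 nt, where the medians were 2.13 and 1.68. The 26, in exons of 151 to 300 nt, had medians of 2.85 and 1.94, above those of the fully exonic intervals in the same exon class.

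Start codon intervals lay in longer exons than start codons do in general. The median exon with a midpoint was 496.5 nt (95% interval of the median 469 to 520). The exon that holds the start codon had a median of 258 nt over all 21866 representative mRNAs, 274.5 nt over genes with a placed interval and 518.5 nt over genes with a start codon interval. Since a long 5′ UTR in a first exon lengthens that exon, the rule's preference for long 5′ UTRs and this difference cannot be told apart.

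Enrichment was also higher in the far 5′ UTR than at the start codon. Midpoints more than 400 nt before it (121) had medians of 3.34 and 2.38, those from there to 200 nt before it (150) 3.02 and 2.29, those 101 to 200 nt before it (155) 2.77 and 2.21, and those 1 to 100 nt before it (284) 2.71 and 2.03. After the start codon the medians were 2.44 and 2.02 in the first 50 nt, 2.47 and 1.87 from 51 to 100 nt, 2.50 and 2.03 from 101 to 150 nt, and 2.76 and 2.12 from 151 to 200 nt. In exons over 600 nt alone, the 4 upstream classes had medians between 3.08 and 3.44 in replicate 1 and between 2.33 and 2.42 in replicate 2. The first 50 nt after the start codon (52 intervals) had 2.69 and 2.27, and the 3 classes after that had 3.15 to 3.43 and 2.27 to 2.50. With distance from the mRNA start, the medians were 2.57 and 1.96 at up to 300 nt (551) and 3.24 and 2.35 at 601 to 1000 nt (243).

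Annotated transcripts of one gene can begin at different places. Within 200 nt after the start of another annotated transcript of the same gene lay 290 of the 1612 (17.99%, Wilson interval 16.2 to 19.9). Their medians were 2.58 and 1.99, with 42.4% at 2 or more in both replicates, against 2.72 and 2.12 and 52.1% for the other 1322. These 290 intervals were closer in level to those in the first 200 nt of the mRNA (2.49 and 2.02, 43.6%) than the others were.

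GGAC was present in more of the windows around the midpoints than of those around start codons in general. In windows reaching 100 nt to each side on the mRNA strand, searched in that orientation only, GGAC was present in 75.1% of the start codon intervals (1211 of 1612, Wilson interval 73.0 to 77.2), in 69.3% of all other placed intervals, and in 60.0% of windows centred on the start codons of all representative mRNAs. Windows centred on the start codons of the member genes themselves had it in 70.3%. Those of genes with a placed interval but no start codon interval had it in 64.3%. A window was shorter where the mRNA began or ended within 100 nt of its centre. The rule keeps the midpoints of start codon intervals farther than this from the mRNA start. Start codons can lie closer, as the median 5′ UTR was 150 nt over all representative mRNAs and 388.5 nt in member genes. Shorter windows have less room for a motif, and the part of this in the differences between windows was not tested. GGACT, which contains GGAC, was present in 29.5% of the start codon intervals and 27.8% of all other placed intervals, and in the start codon windows of all mRNAs in 21.4%, of member genes in 26.9% and of genes without a member in 20.3%.

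The base before GGAC was compared in the same windows. CGGAC was in 21.2% of the start codon intervals and 11.4% of all other placed intervals, GGGAC in 32.6% and 25.8%, AGGAC in 35.4% and 34.6%, and TGGAC in 26.3% and 28.9%. AGACT and GAACT, other forms of the motif, were in 19.1% and 26.2%, and in 18.7% and 23.9%. The start codon windows were richer in G and C, with a median of 59.2% against 53.7% in all other placed intervals, and the part of this in the CGGAC share was not tested. Intervals in the first 200 nt of the mRNA had 64.7% G and C and CGGAC in 25.3%. Windows centred on the start codons of member genes had 60.2% and CGGAC in 21.5%. Those of genes without a member had 61.7% and CGGAC in 18.04%. Windows cut short at an mRNA end were included here as well.

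Among the start codon intervals, GGACT was in 34.5% of the 812 with at least 2 in both replicates (Wilson interval 31.3 to 37.8) and in 24.5% of the other 800 (21.6 to 27.6), while GGAC was in 76.2% and 74.0%. The motif was densest at the midpoint: GGAC occurred 7.60 times per 1000 nt within 24 nt of it and 4.91 times at 375 to 399 nt. Near stop codons the same distances gave 7.50 and 4.08, and elsewhere in coding sequence 6.31 and 4.75. The nearest GGAC adenosine was a median of 48 nt from the midpoint (quartiles 19 and 97), and 1607 of the 1612 intervals were on an mRNA with a GGAC.

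**Figure D5:**
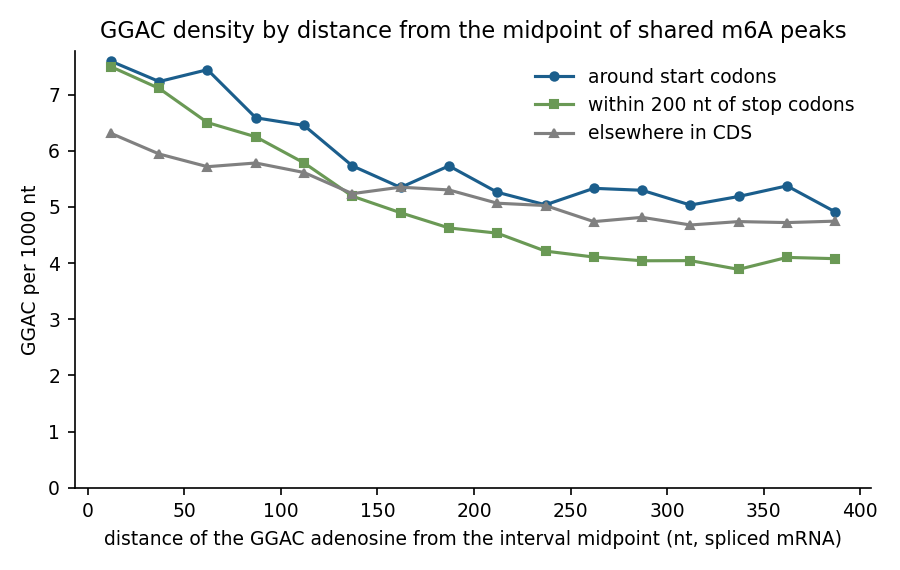
GGAC occurrences per 1000 nt of mRNA against the distance from the interval midpoint in nt, for intervals around start codons, around stop codons and elsewhere in coding sequence. Start codon intervals go from 7.60 within 24 nt to 4.91 at 375 to 399 nt.

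The sequence around the start codon was compared as well. Of the 1432 genes, 1427 had an ATG as their annotated start. A purine stood 3 bases before it in 85.4% of these and in 85.7% of the other genes with a placed interval, and a G directly after it in 48.7% and 53.4%. An upstream ATG was present in the 5′ UTR of 73.3% and 51.9%. Per 1000 nt of 5′ UTR there were 6.65 and 6.15 upstream ATGs, and all representative mRNAs had 8.34. The 5′ UTRs of the first set were the longer, as given above.

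Most genes with a start codon interval were methylated elsewhere as well. Another placed interval was present in 1175 of the 1432, and 579 of these 1175 had one near the stop codon (49.3%, Wilson interval 46.4 to 52.1), against 48.9% of the other 7692 genes with a placed interval. An interval in the first 200 nt was present in 167 of the 1432 (11.7%), and in 1637 of all 9124 genes with a placed interval. Of the 1432, 257 (17.9%) had no other placed interval, and the like share for other genes was not computed. In the 1175 genes, the start codon interval was the strongest of the gene in 314 (26.7%) in replicate 1, in 328 (27.9%) in replicate 2 and in 172 (14.6%) in both. What other classes of interval reach, or what the number of intervals per gene would give, was not computed, so these shares have no reference.

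Each replicate had further peaks in the same zone that had no partner. Placed by their own midpoints, 1555 of 2246 replicate 1 peaks in the zone overlapped a peak of replicate 2 (69.2%, against 69.5% over all placed peaks and 77.7% near stop codons). In replicate 2, 1648 of 2299 had a partner (71.7%, against 77.5% and 85.6%). Peaks without a partner were weaker, with medians of 2.17 against 2.66 in replicate 1 and 1.75 against 2.05 in replicate 2.

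Gene groups differed in how many of their genes had a start codon interval, against 15.7% of all 9124 genes with a placed interval. Potassium channels had one in 16 of 52 genes (30.8%), with 18 intervals of which 14 had at least 2 in both replicates. Kcna1, a presynaptic and axonal channel, had 4.81 and 3.08, Kcnj3, a G protein-gated channel, 5.02 and 2.80, Kcng4, a silent subunit, 3.10 and 3.54, and Kcna5, of the same subfamily as Kcna1, 3.22 and 2.79. The 52 channel genes had a median 5′ UTR of 309 nt against 195 nt over all genes with a placed interval, and per 10 kb of allowed zone they had 8.51 intervals against 6.79 overall.

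POU and Sox transcription factors, which set neural cell identity, had an interval in 4 of 14 genes: Pou3f3 (6.19 and 3.44), Sox21 (8.65 and 3.21), Sox1 (3.98 and 2.72) and Sox4 (3.53 and 2.31). Their median 5′ UTR was 251 nt, and they had 7.42 intervals per 10 kb of zone against 6.79 overall. Oligodendrocyte lineage factors had one in 4 of 16, and all 4 reached 2 in both replicates: Olig1 (5.05 and 2.25), Sox8 (3.24 and 2.18), Nkx2-2 (2.03 and 2.47) and Sox10 (2.16 and 2.00). For these factors the median 5′ UTR was 251.5 nt, with 8.99 intervals per 10 kb of zone. Histone modifier and chromatin remodeler genes had an interval in 8 of 52 (15.4%), with 7.27 intervals per 10 kb of zone. Among them were the acetyltransferases Kat6a (5.36 and 3.07) and Ep300 (3.36 and 2.64 for the stronger interval) and the remodeler Chd5 (3.28 and 2.27).

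Translation initiation factors had an interval in 8 of 29 genes (27.6%), but 1 of the 9 intervals reached 2 in both replicates. The 1 that did was Eif5b, which joins the ribosomal subunits, with 3.55 and 2.17. The genes of this list with a placed interval had a median 5′ UTR of 145 nt. They had 15.6 intervals per 10 kb of zone, against 6.79 overall. Only the Eif6 interval had all its bases in exons. Exons held 62.6% of the interval bases in Eif5b, 33.3% in Eif4e, and 15.1% and 40.5% in Eif3j1. The other intervals of the list had 52.7 to 79.1%. Eif6 had 2.77 and 1.76, Eif4e, the cap-binding factor, 1.75 and 1.71, and the stronger interval of Eif3j1, a subunit of the factor that binds the small ribosomal subunit, 2.61 and 1.53. Among mRNAs with known regulatory upstream open reading frames, 3 of 13 had an interval: Slc35a4 (3.69 and 1.75), Cdkn1b (2.37 and 1.73 for the stronger) and Bace1 (1.61 and 1.66). This list had 6.67 intervals per 10 kb of zone, with a median 5′ UTR of 448 nt.

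Immediate early genes had an interval in 4 of 25, and Jun (3.18 and 3.48) and Klf4 (3.67 and 2.21) followed Fosb, with Egr1 at 1.52 and 1.83. Heat shock proteins had one in 3 of 24: Dnajb4 (2.12 and 2.64), Hsph1 (2.53 and 2.08) and Dnajb6 (1.55 and 1.17). Genes of the m6A machinery had one in 2 of 21, the writer complex adaptors Rbm15b (2.19 and 2.50) and Rbm15 (1.72 and 2.57).

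A few gene families were picked by symbol after their values were seen. Clustered protocadherins had a start codon interval in 11 of 46 genes (23.9%), all 11 at 2 or more in both replicates, with medians of 4.43 and 3.17 and 12.8 intervals per 10 kb of zone. Orphan and other receptors named Gpr had one in 13 of 38 (34.2%), with medians of 4.16 and 2.98. Their median 5′ UTR was 309 nt, and they had 9.28 intervals per 10 kb of zone against 6.79 overall. Zinc finger genes named Zfp had one in 26 of 282 (9.22%), with 3.33 and 2.44 and 3.68 intervals per 10 kb.

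Olig2, the oligodendrocyte transcription factor at the centre of the study, stood just outside the zone. The midpoint of its interval over the start codon lay 217 nt after the first base of that codon (chr16:91226345-91226889, 2.69 in replicate 1 and 1.88 in replicate 2), beyond the limit of 200 nt. The start codon of Olig2 reads ATGGACT, and a second GGACT followed, with its adenosine at base 112 of the coding sequence. The paper names the adenosine at base 112 as an m6A site. It reports that Prrc2a no longer affected Olig2 coding sequence constructs in which this base was mutated. Both motifs lay within the interval and are shown on RefSeq mm10, plus strand, with ATGGAC and GGACT in capitals.
Olig2 start codon, chr16:91226388-91226417: atccctggggccATGGACtcggacgccagc
Olig2 second site, chr16:91226496-91226525: ggcttcacaggagGGACTgtgtcctcgtcc
Olig2 also had an interval in the first 200 nt of its mRNA, before the start codon, with 2.01 and 3.52 (chr16:91225454-91225739). In its 3′ UTR lay an interval with 7.28 and 2.76 (chr16:91227304-91227893) and a weaker one with 1.83 and 1.51 (chr16:91228115-91228277).

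The limits of the rule cut through intervals of like strength. Just inside, 200 nt after the first base of the start codon, lay Socs2 (2.58 and 6.12), Tmem121 (6.26 and 2.92) and Ttc1 (4.45 and 1.79), and just outside, 1 nt farther, lay AW209491 (2.87 and 3.03), Cwc15 (1.65 and 1.31) and Sv2c (5.39 and 1.82). At the mRNA start, Ahnak (2.05 and 2.22), Asic4 (3.50 and 1.95) and Baz1b (2.36 and 1.87) were the first inside. Maged1 (1.60 and 1.68), Rims1 (1.51 and 1.49) and Shb (4.88 and 2.35), each at 200 nt, were the last outside.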

How the data were processed

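m6A-IP and input libraries of whole brain were sequenced. The authors trimmed the reads, aligned them to mm10 with TopHat2 (version 2.0.9 per the submitters' processing notes), kept uniquely mapped reads with a mapping quality of at least 20 and called peaks in each replicate against its own input with MACS2, without pooling replicates. The deposited values are fold enrichments, linear ratios of IP over input. The lists give no read counts, so depth and its precision are unknown, and no input file was used here. Peak ends were taken as 1-based and inclusive.

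Peaks of both lists were intersected in Python, and bedtools 2.31.1 gave the same intervals. Midpoints were placed on GENCODE M21 mRNAs with pandas 2.3.3. The placement was tested on simulated positions, drawn at random from the same mRNAs. Wilson intervals (95%) cover counting error only. Replicates were not tested, since there were 2 samples of 1 group and intervals are not replicates. Members, gene lists and comparisons were chosen with earlier results of these data known.

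Genes were named by rule: the 20 members with the largest lower value of both fold enrichments (1 per gene), the strongest 1 to 4 of each gene list, the 5 members most different between replicates in each direction and the 3 intervals on each side of each limit. Some items are not reported here. Alternatives were another overlap, a fold enrichment minimum, other distance limits, another representative mRNA, each replicate alone and another motif or window.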

Additional observations from a re-analysis of the deposited data

How the results depend on the processing

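Over 13 results and 12 settings, 126 alternative values were computed, of which 90 stayed within a tolerance, 36 moved beyond it and none changed sign. Counts, shares, fold enrichments and exon lengths cannot change sign, so the last statement is open only for the log2 ratio and the difference in GGAC share. The ratios of medians between exon classes stayed above 1 wherever they were computed. The tolerance was the 95% interval for shares, the exon median and the log2 ratio, 1.5 times for counts, the spread between replicates for fold enrichments and their ratios, and the margin on 1 side of the GGAC interval for the difference in GGAC share. Requiring 2-fold enrichment in each list left 812 intervals, 6.58% of placed intervals, with a replicate 1 median of 3.34, 100.0% at 2 or more by construction, 59.0% covering the start codon, a median exon of 692.5 nt and 15.1% after another transcript start. The difference between exon lengths became smaller under this minimum, which cuts the classes unequally. It kept 21.5% of the intervals in exons up to 150 nt and 75.3% of those in exons over 1200 nt, so the smaller difference is partly set by the filter. The ratio of medians, exons over 1200 nt to exons up to 150 nt, went from 1.63 to 1.36 in replicate 1. In replicate 2 it went from 1.47 to 1.13. With a limit of 100 nt from the mRNA start there were 2678 intervals (13.6%), 47.6% of them at 2 or more in both replicates, a median exon of 357 nt and 12.1% after another start. With 400 nt there were 695 (3.52%), 58.8% at 2 or more, 57.4% covering the start codon and a median exon of 786 nt. Keeping midpoints up to 100 nt after the start codon gave 5.63% of placed intervals, 60.6% covering it, 541 nt and 21.2% after another start. Keeping those up to 400 nt gave 2620 intervals (13.3%), 37.7% covering it and 13.9% after another start. An overlap of 50% of both peaks gave a median exon of 438 nt, and the longest coding transcript gave 8.77% of placed intervals. From each replicate alone, the share of placed intervals was 8.24 to 9.30%, the median exon 417 to 426.5 nt and the GGAC share 72.9 to 73.9%. GGAC was within a 101 nt window in 50.6%, and GGACT within 100 nt of the midpoint in 29.5%. The alternative that kept only transcripts with a complete annotated start was chosen after seeing the data and moved no result. A change of distance limit or a fold enrichment minimum changes which intervals are counted, and for other moves the cause was not tested. No paired analysis was possible because only the IP samples have files, and they form 1 group. Fold enrichments carry no read depth, so weak intervals of rarely expressed genes have unknown precision.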
